A study of Mus musculus with 3 samples.

Results

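Tumours carrying guide RNAs against Rb1 were described in mice with and without p53. A pool of lentiviral vectors, each with Cre recombinase, 1 guide and a random barcode, started lung tumours in 17 mice, and barcode sequencing gave the number of neoplastic cells in every tumour (tumour barcoding, Tuba-seq). The Rb1 tumours were taken as all rows of the 3 deposited tables whose guide is Rb1#1 or Rb1#2, which are 2 of the 13 guides of the pool. They numbered 6777 of the 57536 tumours of at least 500 cells. The reference was the tumours of 5 inert guides (NT1, NT2, Neo1, Neo2 and Neo3) in the same mouse, and the other targeted genes were Ambra1 (3 guides), Apc (1 guide) and Rbm10 (2 guides).

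The 3 genotypes were KT, KT;Cas9 (called KTC) and KPT;Cas9 (called KPTC), with 4, 9 and 4 mice. By the usage of this field, T is a fluorescent reporter carried by all 3 genotypes, while P is p53 deleted by Cre and C is Cas9. KTC mice were p53 wild-type. KT mice lacked Cas9, so that no guide could cut there, and they gave each guide's share of the virus. Lungs were taken at 15 weeks after tumour initiation per the sample labels, and at 14 to 15 weeks per the series' design text. All 4 KPTC mice were male, beside 2 of 4 KT and 4 of 9 KTC mice. The values are of barcodes in DNA of whole lungs: no measurement tells whether Rb1 was cut in a given tumour, and no gene expression is available to check the cell type.

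Rb1 encodes the retinoblastoma protein, which holds E2F transcription factors in check and so restrains entry into S phase. Kinases bound to D-type cyclins phosphorylate the protein and release E2F, and the protein encoded by Ambra1 promotes the turnover of those cyclins. p53 restrains cyclin-bound kinases through the inhibitor p21 and also triggers cell death. Joint loss of RB1 and p53 is a hallmark of small cell lung cancer, whereas in lung adenocarcinoma loss of RB1 is less common.

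Each tumour was identified by a barcode of 30 bases, made of 4 random blocks of 5 bases between fixed pairs of bases (100% of listed barcodes). The barcodes of the largest Rb1 tumour of KPTC mice 1, 3 and 4, and of the largest in the KTC and KT groups, are shown because the 10 largest tumours held 57.6%, 70.9% and 73.5% of the Rb1 cells of these KPTC mice. They are written 5′ to 3′ with the random blocks in capitals.
KPTC mouse 1, Rb1#1, 2919140 cells: gcGTTTGtaCTTGTgcCATATtaTTTTAgc
KPTC mouse 3, Rb1#1, 375983 cells: gcAAGCAtaCCTCGgcGTAAAtaACTGGgc
KPTC mouse 4, Rb1#2, 774059 cells: gcCCCACtaCGGCGgcGGGCCtaCCGAGgc
KTC mouse 2, Rb1#1, 108507 cells: gcGGAGAtaGTGTCgcAGAGAtaAGCAGgc
KT mouse 3, Rb1#1, 61578 cells: gcATCCGtaAATCGgcCCAAAtaCAACAgc
For the largest Rb1 tumour of each of the 17 mice, the same mouse listed 0 barcodes with the same guide at 1 mismatch.

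Barcode reads per mouse ran from 338871 to 10456649, and 500 cells corresponded to 3.80 reads in KPTC mouse 1, to 18.4 in KPTC mouse 3 and to at least 24.6 elsewhere. KTC mouse 6 held 29 inert and 9 Rb1 tumours, fewer than any other mouse, whereas the others held 105 to 7075 inert and 28 to 1261 Rb1 tumours.

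With p53 intact, tumours carrying Rb1 guides were modestly larger than inert tumours. Without p53 they were larger again, and the whole of the KPTC range lay above the whole of the KTC range. Size was taken as the log-normal mean, the mean that a log-normal distribution fitted by maximum likelihood gives for the tumours of at least 500 cells. In KT mice 1 to 4 the Rb1 tumours had mean sizes of 1792, 1438, 1716 and 1460 cells, beside 1797, 1477, 1765 and 1325 cells for inert tumours of the same mice. In KTC mice Rb1 tumours ran from 1140 cells through a median of 1981 to 2292, and inert tumours from 666 through 1470 to 1699 cells (9 mice). In KPTC mice 1 to 4 Rb1 tumours had 5663, 4892, 7448 and 7127 cells, and inert tumours 2056, 2265, 2767 and 1793 cells. Inert tumours were also larger on average in the mice without p53 (2221 ± 413 cells, SD, n = 4) than in KTC mice (1350 ± 325 cells, SD, n = 9), so each mouse's Rb1 tumours were set against its own inert tumours.

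The ratio of Rb1 to inert size was 0.998, 0.974, 0.972 and 1.10 in KT mice 1 to 4. It ran from 1.20 through a median of 1.32 to 1.96 in KTC mice. It was 2.75, 2.16, 2.69 and 3.98 in KPTC mice 1 to 4. None of the 3 genotypes overlapped another. On the log2 scale the ratio was 0.014 ± 0.085 over the 4 KT mice (SD), 0.52 ± 0.25 over the 9 KTC mice (SD) and 1.50 ± 0.36 over the 4 KPTC mice (SD).

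The effect of p53 status was tested as the difference between KPTC and KTC mice, by exchanging genotypes between mice in every possible way (exact permutation test, two-sided), with p adjusted by Benjamini-Hochberg over the 4 targeted genes. The Rb1 ratio was 1.97-fold higher in KPTC (log2 difference 0.98, 4 of 4 KPTC mice above every KTC mouse, exact permutation p = 0.0014, the smallest that 715 splits allow, adjusted p = 0.0056). Leaving out any 1 mouse kept the difference between 0.82 and 1.11 and the adjusted p at or under 0.018 (exact permutation). Among male mice alone the difference was 0.94 and the groups stayed apart, at the smallest p that 4 against 4 mice allow (exact permutation p = 0.029, adjusted p = 0.11). It was 0.77 with KPTC mice 1 and 2 only and 1.19 with mice 3 and 4 only, which are written with more digits in the table. With the geometric in place of the log-normal mean the difference was 0.36, and with the arithmetic mean 1.96 (adjusted exact permutation p = 0.011 and 0.0056). Each inert guide set against the other 4 gave differences of -0.13 to 0.12 on the same scale (exact permutation, smallest adjusted p = 0.46).

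A mean over tumours above a fixed minimum also takes in tumours that only just pass it, so a second measure took equal numbers. When as many of the largest Rb1 tumours were taken in each mouse as the KT mice predict from the inert tumours, the log2 ratio was 2.08, 2.07, 2.64 and 3.45 in KPTC mice 1 to 4. It ran from 0.58 to 1.49 in KTC mice and from -0.13 to 0.097 in KT mice. On this number-matched measure the KPTC mice were 3.12-fold above the KTC mice (log2 difference 1.64, 4 of 4 mice above every KTC mouse, adjusted exact permutation p = 0.0056), with a range of 1.34 to 1.80 when 1 mouse was left out. The gap between the p53 states was wider on this measure than among tumours of at least 500 cells. Where Rb1 tumours outnumber the KT prediction the measure drops the smallest of them, so differences in number also enter this gap.

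The difference from KT was reached with p53 present as well as absent. Both comparisons share the 4 KT mice. In KTC mice the size ratio exceeded every KT mouse in 9 of 9 mice (log2 difference 0.50, adjusted exact permutation p = 0.0056), and in KPTC mice in 4 of 4 (1.48, adjusted exact permutation p = 0.029, the smallest p of 70 splits). The KPTC call ended without any 1 KT mouse (adjusted exact permutation p = 0.057, log2 difference 1.32 to 1.61 over the mice left out), although the groups still did not overlap. Among tumours from 5000 cells up both calls ended, at differences of 0.31 for KTC and 1.58 for KPTC (adjusted exact permutation p = 0.58 and 0.057).

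The p53 dependence was then compared between Rb1 and the other genes, each measured in the same mice. For size, the KPTC minus KTC difference was 0.98 for Rb1, 0.32 for Ambra1, 0.043 for Apc and 0.22 for Rbm10 on the log2 scale. Apc encodes a brake on Wnt signalling and Rbm10 a splicing regulator. The difference was larger for Rb1 than for Apc by 0.94 (exact permutation of the within-mouse difference, adjusted p = 0.0084 over 3 genes) and larger than for Rbm10 by 0.76 (adjusted exact permutation p = 0.013). The Rbm10 call ended without KPTC mouse 4 (difference 0.62, adjusted exact permutation p = 0.061). Against Ambra1 the test was not passed (0.66, adjusted exact permutation p = 0.081), but it was without KPTC mouse 3 (0.91, adjusted exact permutation p = 0.027). For summed cells the same contrast was larger for Rb1 than for each of the 3 other genes, by 2.41 for Ambra1, 2.34 for Apc and 2.65 for Rbm10 (adjusted exact permutation p = 0.0014 each, 4 of 4 KPTC mice above every KTC mouse).

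Within a genotype, relative sizes of different genes were set against each other in the same mice. In KTC mice the relative size of Rb1 tumours was 0.427 times that of Ambra1 tumours, and lower in 9 of 9 mice (exact sign-flip test within mice, adjusted p = 0.012). It was 0.852 times that of Apc (lower in 8 of 9 mice, adjusted exact sign-flip p = 0.082) and 1.03 times that of Rbm10 (exact sign-flip, p = 0.75). Without KTC mouse 1 the difference from Apc passed (log2 -0.32, adjusted exact sign-flip p = 0.012). Among KPTC mice the relative size of Rb1 tumours was 1.63 times that of Apc and 1.75 times that of Rbm10, in 4 of 4 mice each. It was 0.674 times that of Ambra1, with Rb1 above Ambra1 in 1 of 4 mice. With 4 mice a sign-flip test cannot go below p = 0.125, so no order of genes could pass the test there (adjusted exact sign-flip p = 0.25, 0.19 and 0.19 for Ambra1, Apc and Rbm10).

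The 2 Rb1 guides were examined apart, since each is a separate reagent against the same gene. In KTC mice both guides gave larger tumours than in KT, and 7 of all 8 targeting guides (87.5%) passed that test. Rb1#1 tumours exceeded KT by a factor of 1.37 (log2 size ratio to inert 0.52 ± 0.37, SD, n = 9, adjusted exact permutation p over 8 guides = 0.048). Rb1#2 tumours were 1.47-fold larger (0.51 ± 0.24, SD, n = 8, adjusted exact permutation p = 0.0040), where KTC mouse 6, with a single Rb1#2 tumour, has no value. The Rb1#2 call held with any mouse left out, whereas the Rb1#1 call ended in 9 of 13 such settings (adjusted exact permutation p up to 0.11), with a log2 difference of 0.34 to 0.54. It ended without KTC mouse 2, 3, 4, 6, 8 or 9, and without KT mouse 1, 2 or 3.

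In KPTC mice 1 to 4 the log2 size ratio was 1.61, 0.79, 2.18 and 2.01 for Rb1#1 and 1.24, 1.62, -0.058 and 1.95 for Rb1#2. The guides stood apart in KPTC mouse 3, where the 60 Rb1#2 tumours were close in mean size to inert tumours (2658 and 2767 cells) while the 97 Rb1#1 tumours had 12580 cells. In KPTC mouse 2 the order was turned, with 3925 cells for Rb1#1 and 6944 cells for Rb1#2. Rb1#1 passed against KT (2.99-fold, adjusted exact permutation p = 0.038), as did 75.0% of the 8 guides, but not without any 1 KT mouse (adjusted p = 0.076). Rb1#2 did not (2.35-fold, 3 of 4 mice above every KT mouse, adjusted exact permutation p = 0.13). Without KPTC mouse 3 it did (log2 difference 1.65, adjusted exact permutation p = 0.033).

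Between KPTC and KTC mice, Rb1#1 size was 2.19-fold higher (log2 difference 1.13, adjusted exact permutation p = 0.034), the 1 guide of 8 that passed (12.5%). That call ended without KPTC mouse 1, 3 or 4 (adjusted exact permutation p = 0.11, 0.055 and 0.11, log2 difference 0.95 to 1.42 over all mice left out). Rb1#2 size was 1.60-fold higher and did not pass (log2 difference 0.68, adjusted exact permutation p = 0.20), but did without KPTC mouse 3 (1.09, adjusted exact permutation p = 0.048). A difference between the guides in size did not pass the test in any genotype: the log2 size of Rb1#1 minus Rb1#2 was 0.11 ± 0.21 over the 4 KT mice (SD), -0.034 ± 0.42 over 8 KTC mice (SD) and 0.46 ± 1.29 over the 4 KPTC mice (SD) (exact sign-flip within mice, adjusted p = 0.77 each). In KPTC this difference ran from -0.82 to 2.24 over mice, and an exact sign-flip test over 4 mice cannot go below p = 0.125. Rb1#1 exceeded Rb1#2 in 4 of 4 KPTC mice in number (1.68-fold, log2 0.75 ± 0.25, SD) and in burden (3.24-fold, log2 1.70 ± 1.28, SD), neither of which was tested. In KT mice, without Cas9, the same values were 1.04-fold and 1.14-fold, with Rb1#1 higher in 2 of 4 mice. In KTC mice they were 1.41-fold and 1.43-fold, with Rb1#1 higher in 7 and 6 of 9 mice. The KTC spread was wide (log2 0.49 ± 1.01 and 0.52 ± 1.40, SD) and includes KTC mouse 6 with its single Rb1#2 tumour.

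The size difference was next followed through the distribution, since a mean can rest on a few large tumours. In KTC mice the median Rb1 tumour was 1.05-fold the size in KT, relative to inert tumours, and no call was made at the 50th, 60th or 70th percentile (1.05-fold, 1.07-fold and 1.13-fold, adjusted exact permutation p = 0.36, 0.27 and 0.12). The increase was 1.34-fold at the 80th (adjusted p = 0.045), 1.82-fold at the 90th (adjusted p = 0.011) and 2.16-fold at the 95th percentile (adjusted p = 0.0093, all exact permutation), and 1.78-fold at the 99th (adjusted exact permutation p = 0.14). All percentiles are of tumours of at least 500 cells unless another minimum is given. Medians in KTC mice averaged 915 cells for Rb1 and 845 cells for inert tumours. Relative to inert tumours, Rb1 tumours past that minimum were 1.38-fold as many in KTC as in KT, so the percentiles do not compare equal numbers. On the number-matched measure Rb1 size in KTC was 1.88-fold that in KT (adjusted exact permutation p = 0.0028). The call at the 80th percentile ended without KTC mouse 3 or 9 or any 1 KT mouse (log2 difference 0.33 to 0.47, adjusted exact permutation p up to 0.095). The rise from the 50th to the 95th percentile was itself tested as the difference of the 2 log2 ratios in each mouse. It was 0.92 ± 0.61 in KTC (SD, n = 9) and -0.11 ± 0.15 in KT (SD, n = 4), with 9 of 9 KTC mice above every KT mouse (adjusted exact permutation p = 0.020). KTC mice 6 and 7, at 1.80 and 1.08, held 9 and 28 Rb1 tumours, so their upper percentiles rest on few tumours. Leaving out any 1 mouse kept the call (log2 difference 0.91 to 1.11, adjusted exact permutation p up to 0.036). Among tumours from 1000 cells up the difference was 0.79 and the call ended (adjusted exact permutation p = 0.37). Ambra1 passed the same test with a difference of 1.44, beside 1.03 for Rb1, while Apc (0.66) and Rbm10 (0.47) did not (adjusted exact permutation p = 0.011, 0.12 and 0.26).

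In KPTC mice the Rb1 tail reached further in absolute size. The 95th percentile of Rb1 tumours was 46277, 34331, 57012 and 50712 cells in KPTC mice 1 to 4, beside 9350, 13851, 17179 and 8016 cells for inert tumours. In KTC mice it ran from 3169 through a median of 8994 to 14747 cells for Rb1, and from 905 through 5140 to 6800 cells for inert tumours. The lowest KPTC value for Rb1 thus exceeded the highest KTC value. Relative to inert tumours, the increase over KT grew from 1.20-fold at the 50th percentile to 1.37-fold, 1.58-fold and 2.17-fold at the 60th, 70th and 80th, then to 3.36-fold, 4.23-fold and 5.16-fold at the 90th, 95th and 99th (4 of 4 mice above every KT mouse at each). The calls were made at the 50th, 90th, 95th and 99th (adjusted exact permutation p = 0.038, 0.029, 0.029 and 0.038) and missed at the 60th, 70th and 80th (adjusted exact permutation p = 0.057 each, passed without KPTC mouse 2 at log2 differences of 0.50, 0.74 and 1.31). The unadjusted p was 0.029 at all 7, the smallest that 4 against 4 mice allow, and the adjusted call ended without any 1 KT mouse at the 50th and 90th, without KPTC mouse 2, 3 or 4 at the 50th, and without any 1 KPTC mouse at the 99th (log2 differences 0.21 to 0.30, 1.35 to 1.97 and 2.17 to 2.60). The rise from the 50th to the 95th percentile was 1.71 ± 0.65 in KPTC (SD, n = 4, exact permutation against KT, adjusted p = 0.029). All 4 targeted genes passed this test at that p, with differences from KT of 1.92 for Ambra1, 1.82 for Rb1, 0.74 for Apc and 0.39 for Rbm10. From 1000 cells up the Rb1 difference was 1.70 and not called (adjusted exact permutation p = 0.076).

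KPTC and KTC mice differed at the 60th and 70th percentiles (1.28-fold and 1.40-fold, adjusted exact permutation p = 0.0056 and 0.011). At the 50th, 80th, 90th, 95th and 99th the KPTC values were 1.14-fold, 1.62-fold, 1.85-fold, 1.96-fold and 2.89-fold those of KTC and did not pass (adjusted exact permutation p = 0.11, 0.067, 0.12, 0.10 and 0.056). Without KTC mouse 6 the 80th, 90th and 99th percentiles passed (log2 differences 0.79, 0.99 and 1.59, adjusted exact permutation p = 0.024, 0.048 and 0.036), and without KTC mouse 1 the 99th did (1.76, adjusted exact permutation p = 0.0081). The rise from the 50th to the 95th percentile differed by 0.79 between KPTC and KTC (adjusted exact permutation p = 0.24). For single inert guides set against the other 4, this difference ran from -0.83 to 0.47 (smallest adjusted exact permutation p = 0.12). With tumours from 200 cells up it differed by 1.47 (adjusted exact permutation p = 0.0056), where KPTC mouse 1 lists no barcode under 263 cells. The difference between the p53 states in the tail's own steepness thus turned on the minimum size.

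Rb1 tumours were also more numerous relative to inert tumours where Cas9 was present. Rb1 tumours made up 9.46%, 11.9%, 10.2% and 10.6% of all tumours of at least 500 cells in KT mice 1 to 4. They made up 7.69% to 14.3% in KTC mice and 13.5%, 15.8%, 18.4% and 17.7% in KPTC mice 1 to 4. The log2 ratio to inert number was -2.34 ± 0.14 over the 4 KT mice (SD), -1.88 ± 0.10 over the 9 KTC mice (SD) and -1.65 ± 0.22 over the 4 KPTC mice (SD). Both genotypes with Cas9 lay wholly above KT (adjusted exact permutation p = 0.0056 and 0.038). The KPTC call against KT was lost on leaving out KPTC mouse 3 or a single KT mouse (log2 difference 0.63 to 0.79, adjusted exact permutation p up to 0.11). It was also lost from 1000 cells up (0.93), from 5000 cells up (1.76), with at least 10 reads, with barcodes of 1 mouse only and under 4 of 7 other inert references (adjusted exact permutation p = 0.057 to 0.11). The KTC difference from KT was 0.46, and it was 0.25 from 200 cells up, 0.95 from 1000 and 1.65 from 5000 (adjusted exact permutation p = 0.050, 0.12 and 0.0027), so that it was not called at 200 and 1000 cells. By gene, all 4 targeted genes passed for number in KTC against KT at 500 cells. The log2 differences were 1.09 for Ambra1, 0.66 for Rbm10, 0.54 for Apc and 0.46 for Rb1. In KPTC against KT they were 0.054, -0.28, 0.22 and 0.70, and all but Ambra1 passed (adjusted exact permutation p = 0.038 each).

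The number ratios of KPTC and KTC mice overlapped. On the log2 scale they were -1.94, -1.70, -1.51 and -1.45 in KPTC mice 1 to 4, and ran from -2.04 to -1.69 in KTC mice. KPTC mice 3 and 4, above every KTC mouse, are those written with more digits. KPTC was 1.18-fold higher (log2 difference 0.23, 2 of 4 mice above every KTC mouse, adjusted exact permutation p = 0.028), but the call ended without KPTC mouse 2, 3 or 4 or KTC mouse 1 (difference 0.17 to 0.33, adjusted exact permutation p up to 0.097). Among tumours from 1000 cells up the difference was -0.018 and at 5000 cells 0.11 (adjusted exact permutation p = 0.996 and 0.82). At the guide level, against KT, 75.0% of the 8 guides passed for number in KTC, among them Rb1#1 (1.51-fold, adjusted exact permutation p = 0.034) and not Rb1#2 (1.12-fold, adjusted exact permutation p = 0.70). The Rb1#1 call ended without KTC mouse 1, 5 or 7 or KT mouse 1, 3 or 4 (log2 difference 0.49 to 0.72, adjusted p up to 0.10), and Rb1#2 passed without KTC mouse 6 (0.37, adjusted exact permutation p = 0.038). In KPTC against KT 0% of the guides passed for number: Rb1#1 was 1.99-fold and Rb1#2 1.24-fold higher, each above KT in 4 of 4 mice at an unadjusted p of 0.029 (adjusted exact permutation p = 0.057). Between KPTC and KTC 50% of the guides passed for number in either direction, and neither Rb1 guide did (1.32-fold and 1.10-fold, adjusted exact permutation p = 0.11 and 0.79). Rb1#1 did without KPTC mouse 1 or KTC mouse 6 (log2 difference 0.53 and 0.51, adjusted exact permutation p = 0.044 and 0.011). By gene, the KPTC minus KTC difference in number was below 0 for Ambra1 (-1.04), Rbm10 (-0.94) and Apc (-0.32), and above it for Rb1 alone.

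Counts of tumours above rising sizes show where the Rb1 excess lay. Pooled over mice, which gives mice with many tumours more weight, KT mice held 19.5 Rb1 tumours per 100 inert tumours at 500 cells, 19.4 at 1000, 16.6 at 5000 and 21.8 at 20000 cells. The KT ratio thus hardly moved with size. In KTC mice it went from 26.9 to 29.2, 49.5 and 90, and in KPTC mice from 29.3 to 34.6, 49.2 and 102 at the same sizes. Up to 20000 cells the pooled ratios of KTC and KPTC mice were close to each other at equal size. Equal size is not an equal percentile, since 30 of 6942 inert tumours reached 20000 cells in KTC mice and 161 of 6176 in KPTC mice. Above 100000 cells KTC mice held 2 Rb1 and 2 inert tumours, and KPTC mice 46 Rb1 and 14 inert tumours, which is 329 per 100. KT mice held 0 Rb1 and 5 inert tumours of that size. Of the 7 tumours of at least 1000000 cells, all in KPTC mice, 5 carried Rb1 guides, and none was inert. These 5 lay in KPTC mice 1 and 2 and measured 20568235, 2919140, 1515689, 1178007 and 1030509 cells, 2 with Rb1#1 and 3 with Rb1#2.

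The share of Rb1 among large tumours depends on the other guides too. Of tumours of at least 20000 cells, Rb1 guides marked 10.8%, 12.5%, 14.0% and 0% in KT mice 1 to 4, where mouse 4 held 9 such tumours. The share ran from 0% through a median of 6.90% to 26.7% in KTC mice, and was 22.8%, 25.4%, 23.9% and 34.4% in KPTC mice 1 to 4. The KTC extremes rest on few such tumours, with 26.7% of 15 in KTC mouse 1 and 0% of 2 in KTC mouse 6. KTC and KT shares overlapped (10.9% ± 8.7 and 9.30% ± 6.34, SD, n = 9 and 4, adjusted exact permutation p = 0.81), and the sign of their difference turned without KTC mouse 1 or KT mouse 4. KPTC shares exceeded those of KT in 4 of 4 mice by 17.3 percentage points (exact permutation p = 0.029, adjusted p = 0.057) and those of KTC by 15.7 points (1 of 4 mice above every KTC mouse, adjusted exact permutation p = 0.025). The latter call ended without KPTC mouse 2 or 4 (16.1 and 13.1 points, adjusted exact permutation p = 0.055 and 0.082).

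Among tumours of at least 100000 cells the Rb1 share was 28.8%, 38.2%, 46.2% and 54.5% in KPTC mice 1 to 4, of 73, 34, 13 and 11 tumours. In the 5 KTC mice that held any it was 22.2% in mouse 2 (2 of 9 tumours) and 0% in the others, with 1 tumour each. In the 3 KT mice that held any it was 0%. KPTC mice were above all of these, but not past the threshold after adjustment (exact permutation p = 0.029 and 0.016, adjusted p = 0.057 against KT and 0.063 against KTC). The other 4 KTC mice and 1 KT mouse held no tumour of this size and have no share.

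Among mice with a like number of Rb1 tumours, the Rb1 cells lay in fewer tumours where p53 was absent. KT mouse 2, KTC mouse 2, KPTC mouse 1 and KPTC mouse 2 held 767, 735, 765 and 711 Rb1 tumours. The 10 largest held 11.8%, 24.5%, 57.6% and 86.3% of the Rb1 cells in these mice, and the largest alone 2.42%, 5.77%, 22.6% and 71.7%. It took the 140, 55, 7 and 1 largest tumours to reach 50 percent of the Rb1 cells. Of inert cells, the 10 largest tumours held 6.55%, 7.28%, 26.4% and 9.95% in the same mice, out of 3444, 2622, 2930 and 2312 tumours. The concentration in few tumours was thus stronger for Rb1 than for inert tumours in each of these 4 mice, where Rb1 tumours are also fewer, and it was not tested.

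Rb1 guides held 9.64%, 11.4%, 9.82% and 10.6% of all tumour cells in KT mice 1 to 4. They held 5.34% to 12.2% in KTC mice and 29.8%, 61.3%, 27.9% and 28.5% in KPTC mice 1 to 4. The KPTC shares lay above those of both other genotypes. Without the largest Rb1 tumour of each mouse, the KPTC shares were 24.7%, 30.9%, 24.2% and 22.6%. The tumour of 20568235 cells in KPTC mouse 2 rested on 1539121 reads, 39.5% of that mouse's reads, and its size is 41.1 times the 500000 cells of a benchmark line, the standard that was added to each lung.

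Summed cells relative to inert tumours, the burden, were 4.57-fold higher in KPTC than in KTC mice (log2 ratio 0.95 ± 0.84, SD, n = 4, and -1.24 ± 0.44, SD, n = 9, adjusted exact permutation p = 0.0056). From 1000 cells up the log2 difference was 1.85 rather than 2.19 and was not called (adjusted exact permutation p = 0.078). The KPTC mice had log2 ratios of 0.45, 2.03, 0.15 and 1.16, so that 2 Rb1 guides outweighed 5 inert guides in each of them. Without the mouse's own largest Rb1 tumour, and over all inert cells, they were 0.081, 0.21, -0.13 and 0.72. In the KTC and KT mice every ratio was below 0, up to -0.40 and -2.24. With the largest tumour of each gene and also the largest inert tumour of each mouse left out, the KPTC minus KTC difference was 1.74 (adjusted exact permutation p = 0.0056). Against KT, 62.5% of the 8 guides passed for burden in KTC and 75.0% in KPTC. Rb1#1 passed in both (2.24-fold and 13.6-fold, adjusted exact permutation p = 0.018 and 0.038), its KTC call ending without KT mouse 1 or 3 (log2 difference 1.02 to 1.28 over all mice left out, adjusted p = 0.058). Rb1#2 passed in KPTC (4.80-fold, adjusted exact permutation p = 0.038), and that call ended without any 1 KT mouse (1.88 to 2.92, adjusted p = 0.076). In KTC Rb1#2 was 1.78-fold higher (adjusted exact permutation p = 0.12) and passed without KTC mouse 6 (log2 difference 1.13, adjusted exact permutation p = 0.0032). Between KPTC and KTC, Rb1#1 was the 1 guide of 8 (12.5%) that passed for burden (6.09-fold, adjusted exact permutation p = 0.011), while Rb1#2 gave 2.70-fold (adjusted exact permutation p = 0.11) and passed without KPTC mouse 3 (log2 difference 2.09, adjusted exact permutation p = 0.018). Single inert guides set against the other 4 differed between KPTC and KTC by -0.38 to 0.42 in burden and by -0.31 to 0.19 in number on the log2 scale (smallest adjusted exact permutation p = 0.20 and 0.17).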

How the data were processed

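Cells per tumour were measured in lungs of 17 mice. Per the labels' protocols, the authors added 3 benchmark lines of 500000 cells to each lung, amplified the guide and barcode region from genomic DNA and converted reads to cell numbers, which the deposited tables list per guide, barcode and mouse. For the read processing, tools are not given in the sources used. All listed values (100%) were whole multiples, within 0.1, of the smallest value in the mouse divided by 2, and that quotient was set as the cells of 1 read. The depth given is in these reads, and PCR reads are not independent molecules, so reads cover counting error only. Tumours of at least 500 cells were kept. Per mouse, size, number, burden and percentiles were set over those of all inert tumours as log2 ratios. Mice, numbered by their identifiers within a genotype, were the replicates. Genotypes were compared by exact permutation over mice and genes within mice by exact sign-flipping, all two-sided, with Benjamini-Hochberg adjustment over 4 genes, 8 guides, 3 genotypes or 3 other genes and a threshold of 0.05. A mouse with fewer than 2 tumours of a guide has no size. Guide burden was a test added after the others were fixed. The text names Rb1, both guides, the other genes as comparators and, of the largest Rb1 tumour of each mouse, some of those in KPTC mice and the largest in KTC and KT. Some items of the labels and tables are not reported here. The tests were tried on simulated data. The members and tests were chosen with earlier results of these data known. Alternatives were minimum sizes of 200, 1000 and 5000 cells, at least 10 reads, each mouse left out, male mice only, near copies of barcodes left out, barcodes of 1 mouse only, other inert references, each Rb1 guide alone, KPTC mice by number format, other size measures and burden without the largest tumour. With 0 near copies at 200 cells or more, leaving them out removed no tumour and could not change a result. Python 3.11.15, numpy 2.4.6 and pandas 2.3.3 were used.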

Additional observations from a re-analysis of the deposited data

Results flagged for a closer look

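Between mice with and without p53, the Rb1 effect differed by 0.98 in size, 0.23 in number and 2.19 in burden on the log2 scale, KPTC minus KTC (exact permutation, adjusted p = 0.0056, 0.028 and 0.0056, n = 4 and 9). The call for number ended under 10 of 16 other settings that kept all mice of the groups or male mice only, and under 1 of them the sign turned.

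A mouse far from the others of its genotype was seen in 3 of 30 sets of per-mouse ratios examined, and chance alone sets about 1 in 20 apart. Rb1#2 tumours in KTC mouse 7 had a log2 size ratio of 1.04, beside 0.23 to 0.55 in the other 7 mice with a value. They were 14 tumours, with a largest of 32259 cells. In KTC mouse 6 the Rb1#2 number ratio was -4.86 (others -3.48 to -2.70) and the burden ratio -5.02 (others -2.79 to -1.62). That mouse held 1 Rb1#2 tumour, of 598 cells, and 8 Rb1#1 tumours.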

How the results depend on the processing

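Over 75 results and 1003 alternative values, 866 kept their direction and their side of the threshold or lay within the stated spread, 107 kept the direction but lost the call, 17 gained a call and 13 changed sign. All are log2 differences by exact permutation unless stated, and where no cause is named, the cause was not tested. Mice could not be paired between genotypes because the genotypes hold different mice and the labels number none of them. Genes and guides were compared within mice.

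At 5000 cells the size difference was 0.31 for KTC against KT and 1.58 for KPTC against KT, both no longer called. Male mice alone gave 0.60, 1.54 and 0.94 for size, 0.40, 0.60 and 0.20 for number and 1.03, 3.27 and 2.24 for burden (KTC against KT, KPTC against KT, KPTC against KTC), none called. With 2 KT males, p cannot go below 0.067. Rb1#2 alone lost the calls for size of KPTC against KT (1.23) and KTC (0.68), number of KTC against KT (0.17) and KPTC against KTC (0.14), burden of KTC against KT (0.83) and KPTC against KTC (1.43), and the share of tumours of at least 20000 cells (5.73 points), while Rb1#1 alone lost number of KPTC against KTC (0.40).

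Number lost its call for KTC against KT at 200 (0.25) and 1000 cells (0.95), and for KPTC against KT at 1000 (0.93) and 5000 cells (1.76), with at least 10 reads (0.76), with barcodes of 1 mouse only (0.73), without NT1 (0.67), Neo1 (0.70) or Neo2 (0.70) and with NT guides only (0.73). For KPTC against KTC it did so at 200 cells (0.098), 5000 cells (0.11), without NT1 (0.18) or Neo2 (0.23), and with NT (0.27) or Neo guides only (0.21), and its sign turned at 1000 cells (-0.018). At 1000 cells the burden difference of KPTC against KTC (1.85) and the 95th minus 50th percentile of KTC (0.79) and KPTC (1.70) against KT were lost, while at 200 cells the latter was called for KPTC against KTC (1.47). The difference between guides changed sign in KT at 5000 cells (-0.068) and in KTC at 200 (0.038) and 5000 cells (0.0019), never called.

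Leaving out 1 mouse changed no call for size, number and burden of KTC against KT, size and burden of KPTC against KTC, and burden of KPTC against KT. The ranges were 1.32 to 1.61 for size and 0.63 to 0.79 for number of KPTC against KT, 0.17 to 0.33 for number of KPTC against KTC, and 2.25 to 2.72 for number-matched size of KPTC against KT. Shares of tumours of at least 20000 cells ran from -1.48 to 3.17 points (KTC against KT) and 13.1 to 17.7 points (KPTC against KTC), and of at least 100000 cells from 0 to 5.56 points (KTC against KT). For Rb1#1 the ranges were 0.34 to 0.54 (size), 0.49 to 0.72 (number) and 1.02 to 1.28 (burden) for KTC against KT, 1.40 to 1.87 (size) for KPTC against KT, and 0.95 to 1.42 (size) and 0.29 to 0.53 (number) for KPTC against KTC. For Rb1#2 they were 0.10 to 0.37 (number) and 0.70 to 1.13 (burden) for KTC against KT, 0.98 to 1.65 (size) and 1.88 to 2.92 (burden) for KPTC against KT, and 0.43 to 1.09 (size), -0.067 to 0.20 (number) and 1.05 to 2.09 (burden) for KPTC against KTC. Rb1 minus another gene in size ran from 0.40 to 0.91 (Ambra1) and 0.62 to 0.86 (Rbm10) for KPTC against KTC, and from -0.32 to -0.19 (Apc) and -0.044 to 0.089 (Rbm10) within KTC. The difference between guides ran from -0.16 to 0.052 in KTC and -0.13 to 0.89 in KPTC.

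For percentiles, KPTC against KT ran from 0.21 to 0.30 (50th), 0.40 to 0.52 (60th), 0.52 to 0.74 (70th), 0.89 to 1.31 (80th), 1.35 to 1.97 (90th) and 2.17 to 2.60 (99th), KTC against KT from 0.33 to 0.47 (80th), and KPTC against KTC from 0.47 to 0.89 (80th), 0.49 to 1.11 (90th) and 1.34 to 1.77 (99th).

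Depth limits KPTC mouse 1 most, where 500 cells are 3.80 reads. The 4 KT and 4 KPTC mice bound what their comparison can show, and sex and genotype cannot be told apart beyond the male mice.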

Other observations

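Of 133242 distinct pairs of Rb1 guide and barcode listed at any size, 94.9% were listed in 1 mouse, 6473 in 2 mice and 358 in 3 mice. Among the 6777 Rb1 tumours of at least 500 cells, 732 (10.8%) had a barcode that another mouse also listed, while 14 pairs reached 500 cells in more than 1 mouse. A single Rb1#1 barcode was listed in 16 of the 17 mice, all but KPTC mouse 3, at 17.0 to 355 cells and so never at the minimum size. Over all guides, 0 barcodes of at least 200 cells lay 1 mismatch from a barcode of the same guide and mouse that was 50 times larger.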
